A study of Rattus norvegicus with 6 samples.

Results

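The fibrillar collagens are the chains that build the banded collagen fibrils of connective tissue. The members were the 9 rows whose gene symbol named a fibrillar collagen chain, out of 2125 genes in the deposited tables. They were 3 major chains (Col1a1, Col2a1 and Col3a1) and 6 minor chains (Col5a1, Col5a2, Col5a3, Col11a1, Col11a2 and Col27a1). Expression was measured by RNA sequencing in primary cultures from Sprague Dawley rats of 120 g, prepared from all dorsal root ganglia and kept in neurobasal medium with B-27. One group of 3 libraries was exposed to lidocaine hydrochloride, a sodium channel blocker used for local anaesthesia, at 5 mM for 24 hours, and the other 3 libraries came from untreated control cultures. The labels name no sorting step. They also do not tell whether each replicate came from its own animal or dish, so a p-value here speaks only of the spread among the 6 libraries, which may be technical.

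Collagen chains wind around each other into a helix, and helices of types I, II and III pack side by side into fibrils. Chains of types V and XI form minor helices that are buried in the fibril and limit its diameter. In peripheral nerve and ganglia, fibroblasts of the connective sheaths make types I and III, and rat Schwann cells are known to make type V. Type II is best known from cartilage, where the transcription factor Sox9 activates its gene in mouse.

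Both tables list only genes that the authors had called significant on these libraries, so a count of changed members describes selected genes and is not independent evidence. In the authors' deposited table the members' log2 fold changes were between −3.12 and 1.74, and Col11a2, at −1.02, was the member nearest to no change. No chain or gene of the lists below that was fitted changed by less than 1 on that scale. Even Timp4, which did not pass the test used here, stood at −1.03. Genes with smaller changes may thus be missing from the tables, which was not tested. The smallest falls, the medians and the absence of a gene are to be read within that limit. Recovered reads in the listed genes numbered 2453051 to 2631083 in the lidocaine and 2710887 to 3592141 in the control libraries, a count that covers only the listed genes of a library. Levels are given as FPKM, read counts scaled for gene length and library size, which can be compared between genes, and changes as log2 fold changes of normalized reads plus 1 (lidocaine minus control). Col24a1, another fibrillar chain, was not analysed here. The labels call the cells neurons, but of 15 sensory neuron markers the tables hold only Elavl4, so the label could not be checked by those markers.

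Promoter windows were found in the RefSeq table (build GRCr8) for 6 of the 9 members, all of them minor chains. No window was held for Col1a1, Col2a1 or Col3a1, so the motif counts describe the minor chains only. The windows cover 250 bases before the gene start, 5′ to 3′ on the gene's strand, and the build differs from that of the expression files (rn6). The windows of the minor chains with the largest falls (Col11a1 and Col27a1) and with the smallest (Col5a3 and Col11a2) are shown, with capitals marking CCAAT and GGGCGG on either strand. They lie at chr2:204508886-204509135 (+ strand), chr5:81662658-81662907 (+ strand), chr8:27625949-27626198 (- strand) and chr20:4817649-4817898 (- strand).
Col11a1: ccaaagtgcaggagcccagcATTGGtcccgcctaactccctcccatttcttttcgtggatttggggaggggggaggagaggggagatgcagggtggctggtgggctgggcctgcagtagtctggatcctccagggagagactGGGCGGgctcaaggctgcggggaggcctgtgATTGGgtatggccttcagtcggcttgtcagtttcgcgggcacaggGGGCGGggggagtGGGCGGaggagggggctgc
Col27a1: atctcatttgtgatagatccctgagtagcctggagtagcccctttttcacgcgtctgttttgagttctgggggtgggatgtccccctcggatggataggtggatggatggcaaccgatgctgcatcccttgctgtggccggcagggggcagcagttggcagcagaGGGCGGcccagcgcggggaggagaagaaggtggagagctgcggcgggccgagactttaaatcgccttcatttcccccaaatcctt
Col5a3: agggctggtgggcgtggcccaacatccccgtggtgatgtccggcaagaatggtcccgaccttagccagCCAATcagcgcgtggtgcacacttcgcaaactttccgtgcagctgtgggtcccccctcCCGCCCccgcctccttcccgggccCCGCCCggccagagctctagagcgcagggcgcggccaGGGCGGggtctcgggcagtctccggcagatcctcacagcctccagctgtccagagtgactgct
Col11a2: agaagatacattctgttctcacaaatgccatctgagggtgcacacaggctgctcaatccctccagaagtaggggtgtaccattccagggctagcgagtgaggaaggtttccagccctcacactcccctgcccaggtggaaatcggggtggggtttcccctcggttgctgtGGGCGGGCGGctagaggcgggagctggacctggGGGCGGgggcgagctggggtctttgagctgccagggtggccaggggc
The first motif, CCAAT, is the core bound by NF-Y and reads as ATTGG on the opposite strand. The second, GGGCGG, is the core bound by Sp1 and reads as CCGCCC on the opposite strand. CCAAT was present in 2 of the 6 members' windows, those of Col11a1 and Col5a3, beside 34% of all 33469 windows of the same length. GGGCGG was present in 5 of 6 windows, all but that of Col5a2, beside 30.5% of all windows. Adjacent matches can overlap, as in the window of Col11a2. The TATA box, searched as TATAAA and, on the opposite strand, as TTTATA, was present in 0 of the 6 windows and in 12.9% of all. The GC content was 65.6% for Col11a1, 58.8% for Col27a1, 68.8% for Col5a3 and 62.8% for Col11a2. Among the minor chains, the 1 with the largest and 1 of those with the smallest falls both held CCAAT, and a match is a description of the letters only.

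With lidocaine, 8 of the 9 chains were lower and Col2a1 was higher on the deposited scale, although rescaling on the listed genes turned Col5a2 (TMM only), Col5a3 and Col11a2 to values above 0, of which those of Col5a3 and Col11a2 under TMM passed the test and the others did not. By mean normalized reads, Col3a1 was 8.68-fold and Col11a1 7.28-fold lower, Col27a1 4.17-fold, Col1a1 2.91-fold and Col5a1 2.68-fold lower, and Col2a1 was 3.33-fold higher. All 9 members passed the test (limma on log2 normalized reads, Benjamini-Hochberg over the 1851 genes kept), where 99.5% of the genes kept passed, 68.6% as lower and 30.9% as higher. The share of the members that passed is that of the background. The lidocaine and control libraries did not overlap in any of the 9 members, beside 98.4% of the genes kept (67.6% with lidocaine below control and 30.8% above). The median log2 fold change was −1.42 over the members, −1.54 over the major and −1.32 over the minor chains, and −1.25 over the genes kept. Rescaling on the listed genes alone, by the trimmed mean of M values (TMM) or the median of ratios, raised the median of the genes kept by 1.25 or 1.16 on the log2 scale, and split the calls into 631 higher and 491 lower or 592 higher and 550 lower, against 572 higher and 1269 lower as deposited. In bulk cultures, fewer cells of a type and less RNA per cell cannot be told apart.

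**Figure D1:**
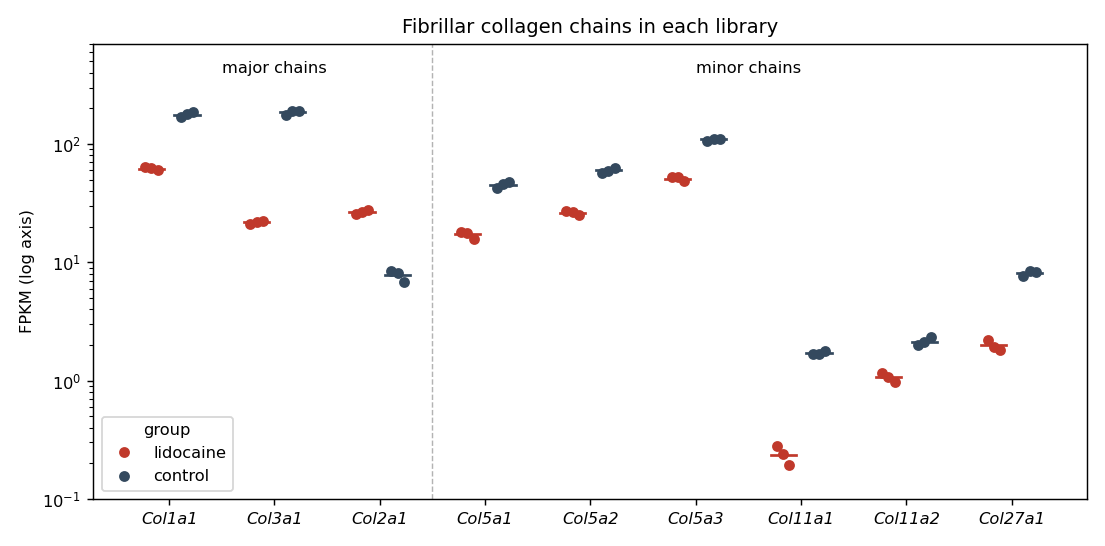
FPKM (log axis) of each fibrillar collagen chain in the 3 lidocaine libraries (left of each pair) and the 3 control libraries, with a line at each group mean. Col2a1 stands at 25.5 to 27.6 in lidocaine and at 6.83 to 8.48 in control, and the other 8 chains lie lower in every lidocaine library, although rescaling on the listed genes turns the log2 fold changes of Col5a2 (TMM only), Col5a3 and Col11a2 to above 0.

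Col3a1 encodes the chain of type III collagen, a homotrimer of elastic tissues and vessel walls. It had 21.0, 21.9 and 22.3 FPKM in the lidocaine libraries and 175, 191 and 191 FPKM in the control libraries. Every lidocaine library was far below every control library, and the spread within each group was small. The log2 fold change of normalized reads was −3.12 ± 0.05 (SE, n = 3 libraries a group, adjusted p = 4.48e-11 by limma with Benjamini-Hochberg), and 7.73% of the genes kept lay below it. By FPKM it ranked 200 of the 2125 listed genes in lidocaine and 17 in control.

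Col1a1 encodes the more abundant chain of type I collagen, the main fibril former of skin, bone and nerve sheath. It had 63.7, 62.5 and 59.8 FPKM with lidocaine, against 169, 179 and 185 FPKM in control. The groups were apart by far more than their spread. Its log2 fold change was −1.54 ± 0.04 (SE, adjusted p = 5.21e-10 by limma with Benjamini-Hochberg), and by mean normalized reads it was 2.91-fold lower, compared with 8.68-fold lower for Col3a1.

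The partner chain of type I collagen was not among the members, because its rows carry the symbol NEWGENE_621351 and are described in the files as type I alpha 2. The first of these rows averaged 5271 ± 139 normalized reads in lidocaine and 20098 ± 834 in control (SD, n = 3 each), and the second 5200 ± 138 in lidocaine and 19804 ± 821 in control. The counts of these rows were nearly equal in every library, so the same reads may stand in both and they are not separate evidence. Each was 3.81-fold lower with lidocaine.

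Col2a1 encodes the chain of type II collagen, the homotrimer of cartilage and notochord. It had 25.5, 26.4 and 27.6 FPKM in the lidocaine libraries and 8.48, 8.17 and 6.83 FPKM in the control libraries. The lowest lidocaine library stood above the highest control library by more than 3-fold. It rose by 1.74 ± 0.08 on the log2 scale (SE, n = 3 libraries a group, adjusted p = 1.78e-08 by limma with Benjamini-Hochberg), and 92.4% of the genes kept lay below it. By FPKM it ranked 165 in lidocaine and 442 in control. Recovered reads were 5511, 6078 and 5962 in lidocaine and 2146, 1514 and 1495 in control, so the rise did not rest on low counts. The control libraries varied more in this chain than in the others, with a coefficient of variation of 11.2% of FPKM, compared with 2.17% to 7.95% for the other 8 chains.

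Among the minor chains, the 3 chains of type V collagen, whose helices sit inside type I fibrils and set their width, had the highest levels. Col5a3, the chain known from rat Schwann cells, had 52.4, 52.5 and 48.2 FPKM with lidocaine, against 107, 110 and 111 FPKM in control. Col5a2 had 27.2, 26.4 and 25.04 FPKM with lidocaine, against 56.9, 59.3 and 63.1 FPKM in control. Col5a1, the chain that classical Ehlers-Danlos syndrome most often affects in humans, had 18.1, 17.7 and 15.8 FPKM with lidocaine, against 42.2, 46.0 and 47.7 FPKM in control. Each of the 3 chains was lower in every lidocaine library than in any control library. The log2 fold changes were −1.42 ± 0.06 for Col5a1, −1.21 ± 0.05 for Col5a2 and −1.12 ± 0.04 for Col5a3 (SE, adjusted p = 1.1e-08, 7.39e-09 and 3.61e-09 by limma with Benjamini-Hochberg), although Col5a2 turned to 0.063 under TMM and Col5a3 to 0.15 under TMM and 0.062 under the median of ratios. Of these rescaled values, that of Col5a3 under TMM passed (adjusted p = 0.00669 by limma with Benjamini-Hochberg), and those of Col5a2 under TMM (adjusted p = 0.245) and of Col5a3 under the median of ratios (adjusted p = 0.263) did not.

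The type XI chains, which nucleate fibrils of cartilage and are scarce elsewhere, had the lowest levels of the family, and they parted. Col11a1 had 0.281, 0.238 and 0.192 FPKM with lidocaine, against 1.66, 1.69 and 1.77 FPKM in control. Its lidocaine libraries held 103, 94 and 71 recovered reads, with exact Poisson 95% intervals of 84.1 to 125, 76.0 to 115 and 55.5 to 89.6 (counting error only), against 714, 531 and 657 reads in control. The fall was thus much larger than the counting error. Col11a2 had 1.17, 1.06 and 0.971 FPKM with lidocaine and 1.98, 2.10 and 2.32 FPKM in control, without overlap. The log2 fold changes were −2.87 ± 0.14 for Col11a1 and −1.02 ± 0.10 for Col11a2 (SE, adjusted p = 2.63e-08 and 4.32e-06 by limma with Benjamini-Hochberg), and Col11a2 turned to 0.25 under TMM (adjusted p = 0.0386) and to 0.16 under the median of ratios, which did not pass (adjusted p = 0.180).

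A further row, LOC100911886, is described in the files as like the Col11a2 chain, and reads of near-identical copies may be split between such rows. It held 13, 12 and 27 recovered reads in lidocaine and 37, 26 and 40 in control, which is few beside the 351, 341 and 293 reads in lidocaine and 699, 542 and 706 in control of Col11a2 itself. Its log2 fold change of −1.06 ± 0.38 (SE, adjusted p = 0.0204 by limma with Benjamini-Hochberg) also turned to above 0 under both rescalings.

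Col27a1, a chain of fine fibrils known from cartilage and developing skeleton in mouse, had 2.21, 1.91 and 1.82 FPKM with lidocaine, against 7.68, 8.43 and 8.28 FPKM in control. The groups were well apart, and the log2 fold change was −2.06 ± 0.08 (SE, adjusted p = 6.3e-09 by limma with Benjamini-Hochberg). Relative to the median of the genes kept, Col3a1 stood at −1.87, Col11a1 at −1.62 and Col27a1 at −0.81, and Col2a1 at 2.99. The other 5 chains stood between −0.29 and 0.23 of that median.

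**Figure D2:**
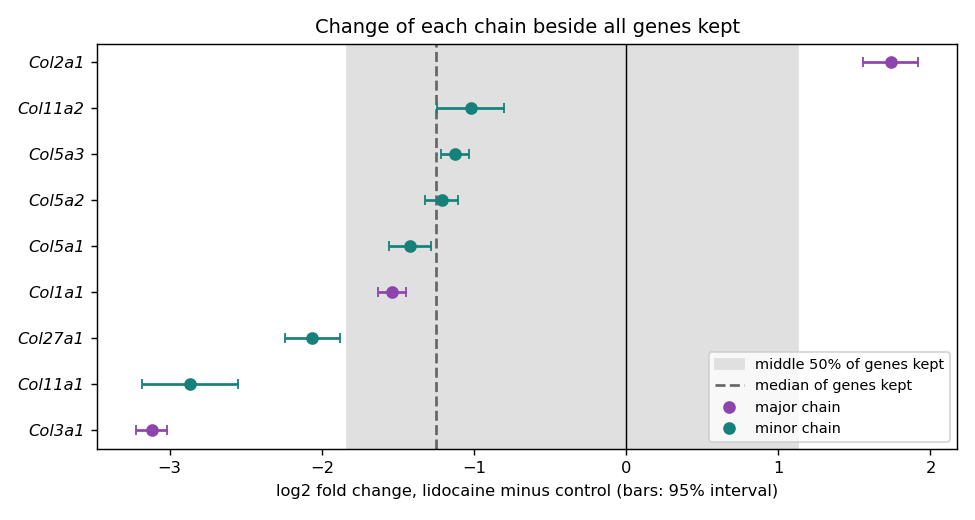
Log2 fold change of normalized reads (lidocaine minus control) of the 9 chains with 95% intervals from limma, beside the median (dashed) and the middle 50% (grey) of the genes kept. Col3a1, Col11a1 and Col27a1 lie below the grey band and Col2a1 above it, whereas the other 5 chains lie within it, and Col5a2 (TMM only), Col5a3 and Col11a2 turn to above 0 when rescaled on the listed genes.

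The order of the 9 members by FPKM, which allows for gene length, differed between the groups. In lidocaine it was Col1a1, Col5a3, Col2a1, Col5a2, Col3a1, Col5a1, Col27a1, Col11a2 and Col11a1, with means of 62.0, 51.0, 26.5, 26.2, 21.8, 17.2, 1.98, 1.07 and 0.237 FPKM. The libraries of Col2a1 and Col5a2, neighbours in that order, overlapped, and those of all other neighbours did not. In control the order was Col3a1, Col1a1, Col5a3, Col5a2, Col5a1, Col27a1, Col2a1, Col11a2 and Col11a1, with means of 186, 177, 109, 59.8, 45.3, 8.13, 7.83, 2.13 and 1.71 FPKM. Col3a1 overlapped there with Col1a1, and Col27a1 with Col2a1. Col3a1 thus ranked 5 with lidocaine and was level with Col1a1 at the top in control, and Col2a1 ranked 3 with lidocaine and 7 in control.

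Major and minor chains were compared by their summed FPKM, as a description without a test. The type I alpha 2 chain, not a member, is left out of these sums. Its rows averaged 24.1 and 24.4 FPKM in lidocaine and 90.3 and 91.4 FPKM in control. Counting it as a major chain would lower the share of the minor chains in both groups. The major chains summed to 110.2 ± 0.553 FPKM in lidocaine and 371 ± 16.7 FPKM in control, and the minor chains to 97.7 ± 5.01 FPKM in lidocaine and 226 ± 8.70 FPKM in control (SD, n = 3 each). The minor chains made up 47.0% ± 1.20 of the summed FPKM in lidocaine and 37.9% ± 0.281 in control. Col1a1 took a like share in both groups, 29.8% ± 0.263 in lidocaine and 29.7% ± 0.226 in control. Col3a1 took 10.5% ± 0.579 in lidocaine and 31.1% ± 0.419 in control, and Col2a1 took 12.8% ± 0.825 in lidocaine and 1.315% ± 0.194 in control. Col5a3 took 24.5% ± 0.558 in lidocaine and 18.3% ± 0.385 in control. Of the normalized reads in all listed genes, the 9 chains held 2.21% ± 0.0501 in lidocaine and 4.93% ± 0.104 in control.

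**Figure D3:**
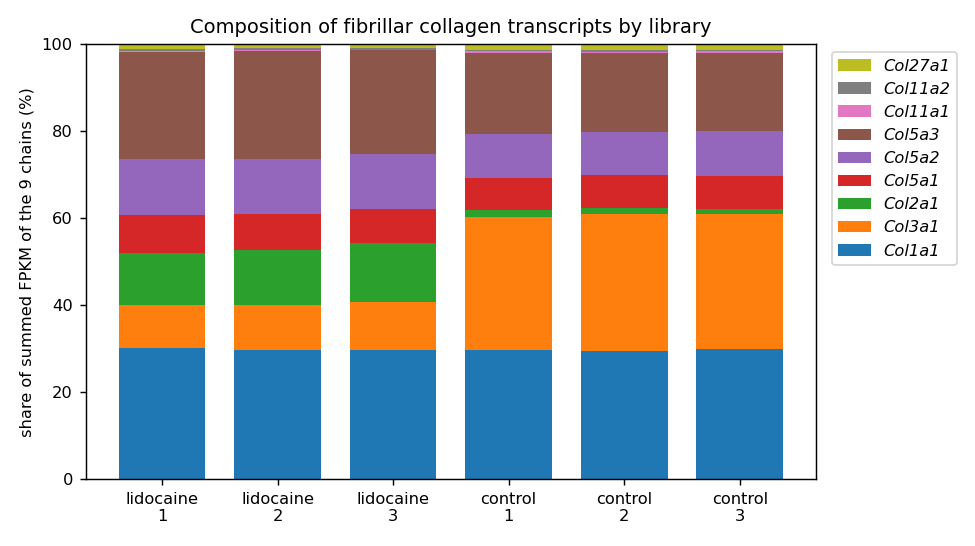
Share of each chain in the summed FPKM of the 9 chains (stacked bars, in percent) in the 3 lidocaine and the 3 control libraries. Col2a1 takes 12.1% to 13.7% in lidocaine and 1.11% to 1.49% in control, Col3a1 takes 9.92% to 11.1% in lidocaine and 30.7% to 31.6% in control, and the Col1a1 share is near 30% in every library.

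Ratios of chains within a library do not depend on how the libraries were scaled, and 5 pairs were compared. The ratio of Col1a1 to Col3a1 was 3.04, 2.85 and 2.68 in lidocaine, against 0.964, 0.935 and 0.966 in control. The ratio of Col11a1 to Col11a2, which share helices in type XI collagen, was 0.241, 0.224 and 0.198 in lidocaine, against 0.838, 0.804 and 0.764 in control. These changes, of 1.58 and −1.86 on the log2 scale, were many times the spread within a group.

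Within type V the shifts were small. The ratio of Col5a1 to Col5a2, which share the common type V helix, was 0.655 ± 0.0218 in lidocaine and 0.758 ± 0.0173 in control. The ratio of Col5a3 to Col5a1 was 2.97 ± 0.0774 in lidocaine and 2.42 ± 0.102 in control, and that of Col5a1 to Col1a1, the fibril partner, 0.277 ± 0.0112 in lidocaine and 0.255 ± 0.00439 in control (SD, n = 3 each). The groups did not overlap in any of the 5 ratios. Each had a two-sided exact permutation p of 0.1 (adjusted p = 0.1 over the 5 pairs by Benjamini-Hochberg), the smallest that 3 against 3 libraries can give, so none could reach 0.05.

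In the RefSeq gene table, Col3a1 and Col5a2 are direct neighbours on chromosome 9 with 0 genes between them. They changed to different degrees, by −3.12 and −1.21 on the log2 scale of normalized reads, and Col5a2 turned to 0.063 under TMM. Of the 9 listed genes that the authors' annotation columns give the cellular component fibrillar collagen, 8 were members, all but Col11a2, and the other was Lum, a proteoglycan that binds fibrils.

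Genes that make and use fibrils were taken from lists of collagen biology. For each list the background is that 68.6% of the genes kept passed as lower and 30.9% as higher. The listed genes had been selected as changed, so the counts describe selected genes. Of 29 genes of collagen biosynthesis and procollagen processing, 5 were listed, of which 4 fell and 1 rose. Sparc, a collagen-binding matricellular protein, had 318, 320 and 313 FPKM with lidocaine, against 1002 ± 19.7 FPKM in control (SD, n = 3). Pcolce, which enhances removal of the procollagen C-propeptide, averaged 4.67 ± 0.293 FPKM in lidocaine and 15.4 ± 0.996 FPKM in control (SD, n = 3 each). Adamts2, which removes the N-propeptide of type I, was 2.68-fold lower and Tll2, a tolloid-like protease, 2.56-fold lower by normalized reads. The gene that rose was Tmem38b, an endoplasmic reticulum cation channel needed for collagen secretion in mouse and human, with 8.26 ± 0.358 FPKM in lidocaine and 2.79 ± 0.336 FPKM in control. Its log2 fold change was 1.54 ± 0.10 (SE, adjusted p = 1.76e-07 by limma with Benjamini-Hochberg). The core modifying enzymes, such as the prolyl and lysyl hydroxylases and Serpinh1, were not among the listed genes and were not analysed here.

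Both listed members of the 5 cross-linking genes fell. Lox, the lysyl oxidase that links fibrils covalently, had 2.63, 2.56 and 2.74 FPKM with lidocaine, against 9.05, 9.86 and 10.04 FPKM in control, a log2 fold change of −1.89 ± 0.06 (SE, adjusted p = 2.49e-09 by limma with Benjamini-Hochberg). Loxl4, a related oxidase, had a log2 fold change of −2.16 ± 0.28 (SE).

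Of 10 collagen receptors, 3 were listed and 2 passed the filter on low values, and both fell. Mrc2, the endocytic receptor that clears collagen, averaged 1.45 ± 0.0925 FPKM in lidocaine and 3.94 ± 0.278 FPKM in control. Itga10, a collagen-binding integrin subunit, had only 21, 8 and 7 recovered reads in lidocaine and 28, 18 and 34 in control (adjusted p = 0.0245 by limma with Benjamini-Hochberg).

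Of 24 fibril-associated collagens and fibril organisers, 12 were listed and each fell, beside 68.6% of the genes kept that passed as lower. Their median was −2.15 on the log2 scale, beside −1.25 over the genes kept, although Tnxb (TMM only) and Col9a1 turned to above 0 when rescaled. Col14a1, which coats type I fibrils, had 2.46, 2.34 and 2.31 FPKM with lidocaine, against 42.7, 44.5 and 42.8 FPKM in control, an 18.6-fold difference in normalized reads. Col16a1, another coating collagen, was 3.33-fold lower, Matn2, a matrilin adaptor, 8.34-fold, Bgn, a proteoglycan that binds fibrils, 4.03-fold, and Tgfbi, a collagen-binding adhesion protein, 2.80-fold. Col9a2 and Col9a1, chains of type IX collagen, which decorates type II fibrils in cartilage, were chosen after their values were seen. Col9a2 averaged 1.65 ± 0.171 FPKM in lidocaine and 7.94 ± 0.317 FPKM in control, and Col9a1 averaged 0.141 ± 0.0141 FPKM in lidocaine and 0.301 ± 0.0583 FPKM in control (SD, n = 3 each), so that neither was higher where Col2a1 was, although the log2 fold change of Col9a1 was above 0 after rescaling.

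Of 12 collagen-cleaving proteases and inhibitors, 4 were listed, and 2 of the 3 that passed the filter fell, although Mmp9 turned to above 0 under TMM. Mmp9, a gelatinase, was 2.34-fold lower and Mmp16, a membrane-bound protease, 4.77-fold lower. Timp4, a protease inhibitor, did not pass, with 33, 23 and 9 recovered reads in lidocaine and 32, 54 and 34 in control (adjusted p = 0.0617 by limma with Benjamini-Hochberg).

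Of 21 regulators of collagen transcription, 3 were listed, of which 2 rose and 1 fell. Sox9, the activator of the type II gene, had 4.70, 4.61 and 4.16 FPKM with lidocaine, against 1.18, 0.950 and 1.17 FPKM in control. The groups were clearly apart, with 774, 809 and 686 recovered reads in lidocaine and 228, 135 and 195 in control. Its log2 fold change was 2.00 ± 0.11 (SE, adjusted p = 5.81e-08 by limma with Benjamini-Hochberg). Tgfb3, a TGF-beta ligand, had 50.1, 50.3 and 49.8 FPKM with lidocaine, against 21.7 ± 0.847 FPKM in control (SD, n = 3), a 2.27-fold rise. Ctgf, a matricellular factor induced by TGF-beta, had 1.78, 1.52 and 2.64 FPKM with lidocaine, against 30.0 ± 1.02 FPKM in control (SD, n = 3), a 15.4-fold fall. The RNA of Tgfb3 and that of Ctgf thus moved in opposite directions, and TGF-beta activity was not tested.

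**Figure D4:**
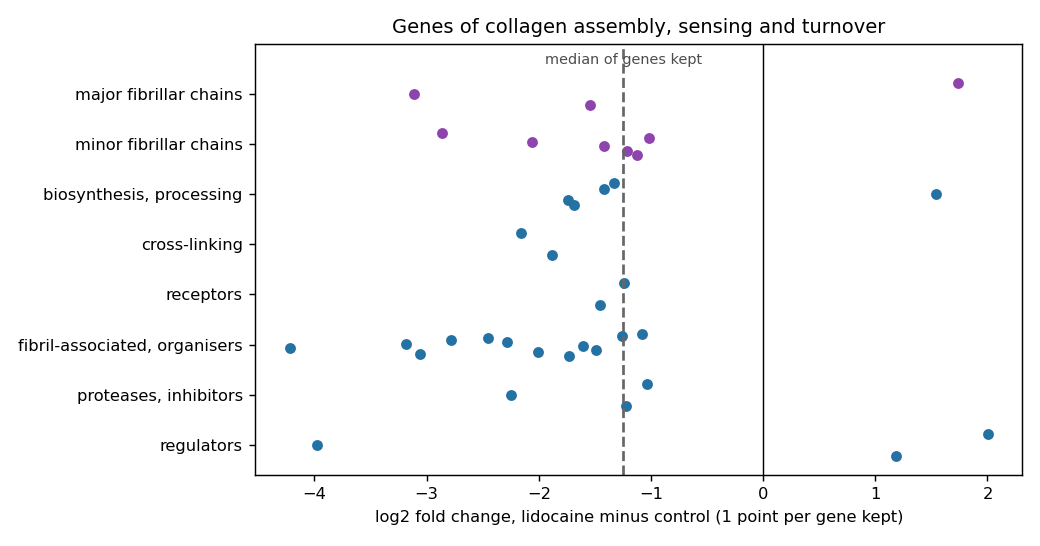
Log2 fold change of normalized reads (lidocaine minus control) of each gene kept from the fibrillar chains and from 6 lists of collagen biology, 1 point per gene, with the median of the genes kept dashed. The points above 0 are Col2a1, Tmem38b, Tgfb3 and Sox9, and after rescaling on the listed genes Col5a2 (TMM only), Col5a3, Col11a2, Tnxb (TMM only), Col9a1, Mmp9 (TMM only) and Timp4 also lie above 0.

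Cartilage genes did not move as a block. Of 8 chondrocyte markers 3 were listed, and Sox9 rose while Acan, the cartilage proteoglycan, and Cnmd, chondromodulin, fell. Acan had 0.116, 0.155 and 0.171 FPKM with lidocaine, against 0.449, 0.514 and 0.593 FPKM in control, and Cnmd averaged 1.39 ± 0.148 FPKM in lidocaine and 3.94 ± 0.216 FPKM in control (SD, n = 3 each). The summed FPKM of the 3 markers was 5.81 to 6.28 in lidocaine and 5.35 to 5.94 in control.

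The listed markers of the cells that make fibrillar collagen were lower as well, and their part in the result was not tested. In the background 68.6% of the genes kept passed as lower, and markers that are not listed could not be assessed. Of 14 fibroblast markers 8 were listed and all 8 fell, although Fbln2 and Scara5 turned to above 0 when rescaled, and their summed FPKM was 36.6 to 38.8 in lidocaine and 119 to 126 in control. Lum was 9.09-fold lower and Dpt, a dermal matrix protein, 4.38-fold. Of 12 Schwann cell markers 5 were listed and all 5 fell, summing to 106 to 114 FPKM in lidocaine and 401 to 422 FPKM in control. Of 10 pericyte and smooth muscle markers 6 were listed and all 6 fell, although Pdgfrb turned to above 0 when rescaled, with sums of 13.5 to 20.9 FPKM in lidocaine and 73.7 to 85.5 FPKM in control. Within these sums, Tagln had 7.85, 1.47 and 1.20 FPKM in the lidocaine libraries.

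Of 8 endothelial markers 5 were listed and fell, with sums of 8.58 to 8.96 FPKM in lidocaine and 30.5 to 32.7 FPKM in control. Of 8 satellite glia markers 3 were listed and fell, with sums of 55.6 to 58.5 FPKM in lidocaine and 172 to 178 FPKM in control. Of 12 macrophage markers 11 were listed and fell, with sums of 15.3 to 17.3 FPKM in lidocaine and 157 to 163 FPKM in control. These counts stand beside 68.6% of the genes kept that passed as lower. None of the listed markers of these 6 cell types was at 0 in all 3 lidocaine libraries, although some stood near the floor. Cd163 had 0, 5 and 3 recovered reads in lidocaine, and Acta2 had 4, 0 and 13. The neuronal marker Elavl4 stood at 6.31 to 7.15 FPKM in lidocaine and 12.5 to 13.7 FPKM in control, and turned to above 0 when rescaled.

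The genes most alike in profile were found for the major and the minor chain with the highest normalized reads averaged over the 6 libraries, Col1a1 and Col5a3, by the Euclidean distance of log2 normalized reads from the control mean over the 6 libraries, members left out. Nearest to Col1a1 were Rnf144a, a ubiquitin ligase (distance 0.0726), Plekha7, a junction protein (0.0896), and Lamb1, a laminin chain of basement membranes (0.0913). Nearest to Col5a3 were Bcl3, a nuclear IκB protein (0.0654), Dhh, the hedgehog ligand made by Schwann cells (0.0685), and Agrn, a basement membrane proteoglycan (0.0866). Nearest to Col2a1, a query added after its values were seen, were Rragd, a Rag GTPase (0.121), Ninj1, an adhesion protein (0.195), and Hk2, a hexokinase (0.196). With only lidocaine and control groups, this distance mostly measures how alike the log2 fold changes are, such as −1.55 for Rnf144a and −1.54 for Col1a1. Shared regulation was not tested.

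Under TMM, Col2a1 stood at 3.01, Col3a1 at −1.84, Col11a1 at −1.60, Col27a1 at −0.79, Col1a1 at −0.26 and Col5a1 at −0.15 on the log2 scale, all past the threshold (limma, Benjamini-Hochberg), and these 6 kept that under the median of ratios too. The remaining 3 chains, Col5a2, Col5a3 and Col11a2, are those whose direction depended on the scaling, as given with their values. Both rescalings centre the listed genes, most of which are lower. A chain that fell less than their median can thus turn by that step alone, and its adjusted p after rescaling carries the same limit.

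**Figure D5:**
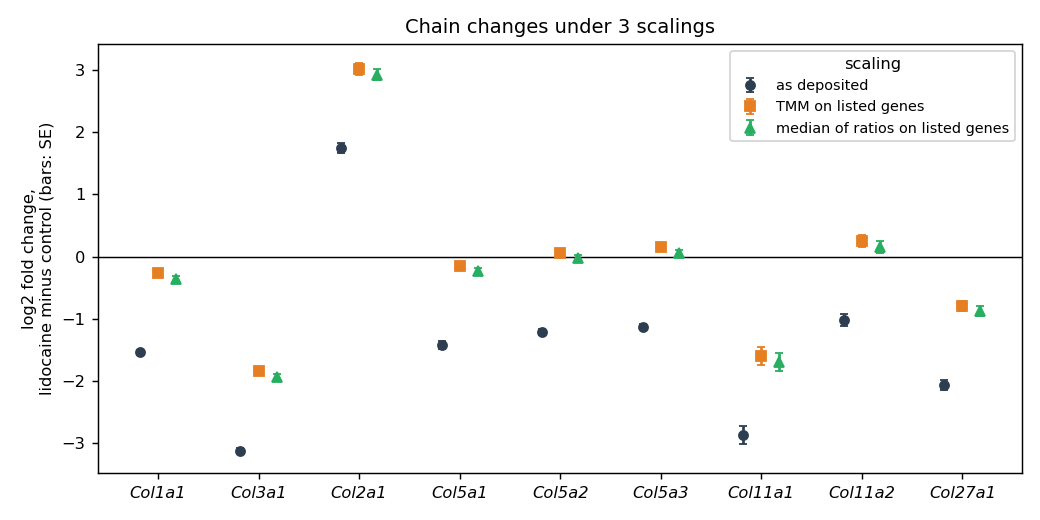
Log2 fold change (lidocaine minus control) of each chain with its SE from limma, on the deposited scale and after rescaling on the listed genes by TMM or the median of ratios. Col2a1 lies above 0 under each scaling and Col3a1, Col11a1, Col27a1, Col1a1 and Col5a1 below 0, whereas Col5a2 (TMM only), Col5a3 and Col11a2 cross to above 0 when rescaled.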

How the data were processed

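Total RNA from 3 lidocaine and 3 control libraries was sequenced, and groups follow the treatment labels. The submitters' processing notes name Bowtie 0.12.2, DESeq2 and rn6 (Rnor_6.0) without their roles, and no source used here gives the counting tool or annotation. Of the 2 tables, the first holds values the authors deposited as log2 of normalized reads plus 1, with the authors' log2 fold change and p-value, and the second holds the authors' FPKM, per the file headers. All 12750 log2 values, once undone, were whole multiples of 1 factor per library (tolerance 0.02 reads), which gave the recovered reads. The tests used the deposited log2 values, and no count test was run on the recovered reads.

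Genes averaging 10 or more normalized reads were kept (1851, with 274 removed). The 2 groups were compared with limma 3.58.1 in R 4.3.3 (two-sided, with a variance trend and without a block), with Benjamini-Hochberg adjustment over the genes kept and a threshold of 0.05. The added 1 makes log2 fold changes of low genes too small. The limma fit was first checked on simulated data with known changes. Chain ratios used FPKM and exact permutation tests. TMM and the median of ratios were computed on the listed genes, most of which are lower, so both centre them. Alternatives covered the pseudocount, filter, scaling, FPKM, the trend, a block on the replicate number and leaving out single libraries.

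The members and lists were chosen with earlier results of these data known. From each list, up to 5 genes with the highest mean FPKM were named, and up to 3 for a cell type. Tnxb, Scara5, Cd163 and Acta2 were also named, outside that rule and after their values were seen. Replicate numbers did not mark a shared batch in the labels. Libraries of a group differed by more than sampling noise in every pair (chi-square per degree of freedom 3.26 to 8.38). The RefSeq gene table held all 9 members.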

Additional observations from a re-analysis of the deposited data

Results flagged for a closer look

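The authors' deposited FPKM table gives a group value beside the library values, which entered no comparison. For 9 of the 9 chains the group value of lidocaine exceeded the mean of the 3 lidocaine libraries by over 1%, by a factor of 1.34 (Col2a1) to 8.63 (Col3a1), whereas for control both were equal. For Col3a1 the authors' group values are 188 FPKM for lidocaine and 186 FPKM for control, while the library means are 21.8 FPKM for lidocaine and 186 FPKM for control. For Col1a1 they are 310.2 FPKM for lidocaine and 177 FPKM for control, while the library means are 62.0 FPKM for lidocaine and 177 FPKM for control. The group value of lidocaine is above that of control for Col1a1, Col3a1, Col5a1, Col5a2, Col5a3, Col11a2 and Col27a1, all of which are lower in the 6 library columns and in the authors' deposited log2 fold changes. Of the chains that are lower there, Col11a1 alone is also lower by the group values, at 1.43 FPKM for lidocaine and 1.71 FPKM for control. The cause was not tested.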

How the results depend on the processing

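Of 135 values (9 chains under 15 alternatives), 129 kept their direction and their side of the threshold, and 6 did not: 5 turned sign and 1 kept its sign but lost its call. All 6 exceptions came from rescaling on the listed genes. Under TMM, the log2 fold change of Col5a2 was 0.063, that of Col5a3 0.15 and that of Col11a2 0.25. Under the median of ratios, Col5a3 stood at 0.062 and Col11a2 at 0.16, and Col5a2 lost its call at −0.027. Of the 5 that turned, Col5a3 and Col11a2 under TMM passed the threshold, and the others did not (limma, Benjamini-Hochberg adjusted p = 0.180 to 0.263). The number of chains past the threshold was 9 under the other alternatives, 8 under TMM and 6 under the median of ratios. The number of listed genes past it, 1841 as reported, was 1068 among genes averaging 100 or more normalized reads, where fewer genes were tested, 1122 under TMM and 1142 under the median of ratios, and 1767 to 1806 with each library left out. With the replicate number as a block it was 1842, and 9 chains passed. Deviations of same-numbered libraries correlated at −0.0278, 0.00946 and 0.0578, and those of differently numbered ones at −0.057 to 0.050. With 3 libraries a group, these values cannot tell whether a number marked a shared animal or dish. The share of the minor chains was 48.7% in lidocaine and 39.8% in control by normalized reads, which do not allow for gene length, and 46.5% to 47.6% in lidocaine and 37.8% to 38.1% in control by FPKM with a library left out. The ratios kept their direction in every alternative run. Col11a1, with the fewest reads, is the chain whose precision depth limits most.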

Other observations

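The tables also list 17 collagen chains outside the fibrillar family under plain symbols. All 17 were lower with lidocaine (median log2 fold change −1.73, range −4.22 to −1.08), beside 68.6% lower and a median of −1.25 over the genes kept. Col9a1 turned to above 0 under both rescalings and Col18a1 under TMM. Col2a1 was thus the only listed collagen chain with a plain symbol that was higher on the deposited scale. The basement membrane chains Col4a1 and Col4a2 had log2 fold changes of −1.61 and −1.49, near that of Col1a1, and Col4a1 averaged 58.7 ± 1.10 FPKM in lidocaine and 176 ± 7.56 FPKM in control (SD, n = 3 each). The microfibril chains Col6a1, Col6a2 and Col6a3 had log2 fold changes of −2.33, −2.48 and −2.46, and Col28a1, a chain known from peripheral nerve, 1 of −2.91, near that of Col3a1. These genes were chosen after their values were seen.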
